A study of Mus musculus with 4 samples.

Results

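The genes described here encode ribosome biogenesis and nucleolar factors, the proteins that make and trim ribosomal RNA and build the 2 ribosomal subunits. They were chosen by name, as symbols of the Nop, Utp, Rrp, Nol, Noc and Imp series, the RNA polymerase I subunits Polr1a to Polr1e and a list of known nucleolar proteins. The rule also asked for a usable value in all 4 libraries and a mean FPKM (fragments per length of transcript and sequencing depth) of at least 1. It matched 57 genes, all of which met both conditions, out of the 23235 symbols in the tables. Utp14b, at a mean FPKM of 1.69, and Polr1e, at 4.05, lay closest above that level, and no matched gene lay below it. The median over the 57 was 17.9 and the highest mean was 153, for Nop10.

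RNA was sequenced from isolated pancreatic islets of C57BL/6 mice, either wild type (WT) or carrying the KR mutation, after fasting or after fasting and refeeding. The KR allele, as far as the study is known, replaces the FoxO1 gene, which encodes a transcription factor, by a form with arginine in place of its acetylated lysines, so that every cell of the animal carries it. The groups were WT and KR islets in the fasted and in the refed state, each group with 1 library. The protocol pools islets over 3 mice of a genotype, and the labels give no age. The titles state a 48 h fast and 6 h of refeeding, while the extraction protocol states a 24 h fast. No group has a replicate library, so the error given with a fitted change comes from an additive model over the 4 libraries. Its single residual degree of freedom is the interaction of feeding and genotype, so p-values do not measure the spread between animals or between pools of a group.

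As background, ribosomes are assembled in the nucleolus. RNA polymerase I transcribes a long precursor of ribosomal RNA. Small nucleolar ribonucleoproteins (snoRNPs) of the box C/D type methylate that precursor, and those of the box H/ACA type convert chosen uridines to pseudouridine. The small subunit processome folds and cleaves its first part, and a separate set of factors matures the large subunit. The route consumes much of a growing cell's energy and is known to follow nutrients, growth signals and the transcription factor Myc. In the beta cell, which makes large amounts of proinsulin, ribosome supply supports secretory protein synthesis.

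Promoter sequences are shown for 4 snoRNP genes, because partners of the same particle moved in different directions after refeeding. They are the 250 bases before the annotated start, from RefSeq on GRCm38.p6, 5′ to 3′ on the strand of the gene. The Gar1 promoter lies on the minus strand at chr3:129831397-129831646, Nhp2 on the plus strand at chr11:51619523-51619772, Nop10 on the plus strand at chr2:112261676-112261925 and Nop56 on the plus strand at chr2:130274162-130274411. Capitals mark the ETS site CCGGAAGT or its reverse complement.
Gar1: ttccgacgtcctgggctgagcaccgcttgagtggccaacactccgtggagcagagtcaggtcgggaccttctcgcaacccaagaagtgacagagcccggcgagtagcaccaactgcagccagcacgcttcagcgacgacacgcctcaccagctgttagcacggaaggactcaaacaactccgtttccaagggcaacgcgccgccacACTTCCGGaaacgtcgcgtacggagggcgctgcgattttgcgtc
Nhp2: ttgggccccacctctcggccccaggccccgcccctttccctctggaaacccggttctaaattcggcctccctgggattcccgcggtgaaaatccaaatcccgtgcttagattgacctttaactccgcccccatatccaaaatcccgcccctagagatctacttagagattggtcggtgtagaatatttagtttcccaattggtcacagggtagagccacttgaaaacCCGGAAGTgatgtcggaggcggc
Nop10: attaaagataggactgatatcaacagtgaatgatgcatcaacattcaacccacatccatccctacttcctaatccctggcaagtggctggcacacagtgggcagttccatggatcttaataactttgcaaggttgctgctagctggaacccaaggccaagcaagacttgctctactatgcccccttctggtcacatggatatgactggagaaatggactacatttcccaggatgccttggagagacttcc
Nop56: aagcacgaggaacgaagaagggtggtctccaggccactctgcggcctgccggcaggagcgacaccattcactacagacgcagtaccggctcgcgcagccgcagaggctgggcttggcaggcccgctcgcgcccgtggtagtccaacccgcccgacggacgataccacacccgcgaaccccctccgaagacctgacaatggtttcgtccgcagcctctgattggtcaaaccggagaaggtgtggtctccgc
Of the 57 genes, 45 had promoters in the RefSeq table, 51 promoters in all. The ETS site CCGGAAGT, on either strand, was present in 5 of the 51 (9.8%), against 5.98% of the promoters of tested genes and 2.88% of all promoters, and the 5 belonged to Gar1, Nhp2, Nol10, Polr1c and Utp3. The E-box CACGTG, the sequence that Myc is known to bind, was present in 6 of the 51 (11.8%), against 8.43% of the promoters of tested genes and 6.02% of all promoters. Its 6 holders were Imp4, Nol11, Nop2, Rrp7a, Utp14b and Utp18. The YY1 site AAGATGGCG, on either strand, was present in 1 of the 51 (1.96%), that of Imp4, against 1.17% of the promoters of tested genes and 0.606% of all promoters. Gar1 and Nhp2 both hold the ETS site. Gar1 fell and Nhp2 rose after refeeding, and the part of the site in these changes was not tested. Median GC content was 56.4% in these promoters and 60% in those of tested genes. No promoter of these genes had 2 of the motifs overlapping, and the matches are descriptions of sequence only.

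Facts of the whole series bear on every value below. Relative to fasted WT, the depth implied by the deposited bounds was 1.01 in the fasted KR library and 0.683 and 0.418 in the refed WT and KR ones, so the refed libraries were shallower. The 57 genes had between 159 and 19011 implied fragments in fasted WT and between 57 and 5665 in refed KR, with Utp14b lowest and Ncl highest in each. The islet label was checked against markers: the summed FPKM was at least 21941 over 5 alpha-cell markers and at least 2824 over 3 delta-cell markers in every library, and Ins2 was 121397 or more in the 3 libraries where it was measured. With 1 bulk library per group, fewer cells of a type and less RNA per cell cannot be told apart. All 4 red blood cell markers had an FPKM under 1 in every library. The loci of 13 of the 57 genes overlap another gene's, and strand-specific counting is not stated. Gnl3, Ncl, Nop56 and Nop58 host 8 small nucleolar RNA genes with values, all 8 listed at 0.

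After refeeding, these genes split. Of the 57, 16 rose, 14 fell and 27 missed the threshold of limma's test (an adjusted p under 0.05), and their median change was -0.05 on the log2(FPKM + 1) scale, the scale of every log2 value here. Over all genes tested 27.7% rose and 29.2% fell, with a median of -0.01, so both counts lie near the background, as does the sum of 30 calls (background 56.9%). At an unadjusted p under 0.05, 17 were higher and 17 lower (background 30.4% and 31.9%). Both refed libraries lay above both fasted ones for 20 genes and below them for 17 (background 36.9% and 38.8%). The largest rise was that of Nop56, a core protein of box C/D snoRNPs, and the largest fall that of Tcof1, which encodes treacle, a nucleolar protein that assists transcription by RNA polymerase I. Changes were small: 2 of the 57 genes in WT and 1 in KR differed at least 1.5-fold between refed and fasted, against 16.1% and 12.9% of all genes tested. Some calls rested on the settings: Ddx21, Gnl3, Noc4l, Nol8, Rrp8 and Wdr12 each passed in 8 of 9 alternatives and Polr1e in 7 of 8.

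**Figure D1:**
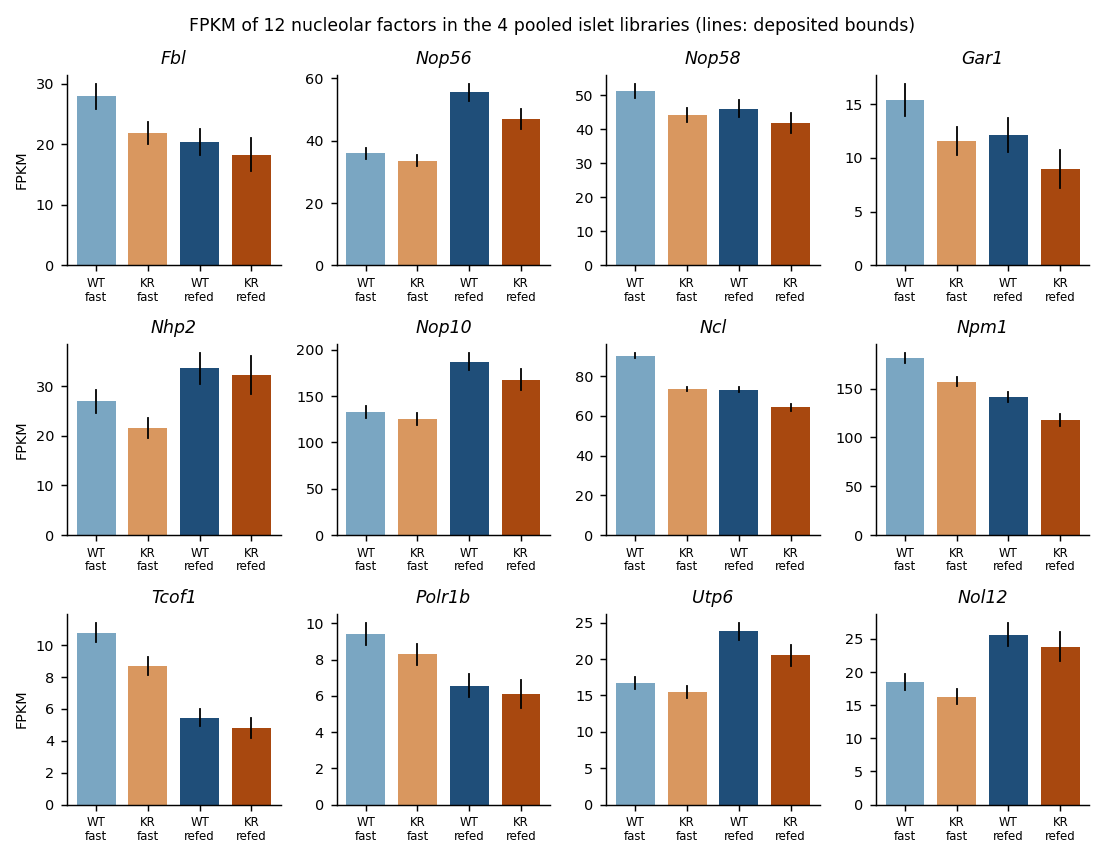
FPKM (vertical axes, from 0) of 12 nucleolar factors in the 4 pooled islet libraries. Bars are single libraries and lines the deposited lower and upper bounds, which cover the uncertainty within a library only. Tcof1, Polr1b, Npm1 and Ncl were lower in both refed libraries than in both fasted ones, whereas Nop56, Nop10, Nhp2, Utp6 and Nol12 were higher in both.

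The nucleolar phosphoproteins and the helicase Ddx21 were the one role group in which every fitted estimate had the same sign after refeeding. Of its 5 genes 4 fell, 0 rose and 1 did not pass (background 29.2% lower and 27.7% higher), at a median of -0.24. All 5 were lower in both refed libraries than in both fasted ones, as were 38.8% of all genes. Tcof1 had an FPKM of 10.8 and 8.69 in the fasted and 5.46 and 4.82 in the refed WT and KR libraries, and fell by 0.80 ± 0.09 (SE, 4 libraries, adjusted p = 0.000106). The fasted and refed values were well apart, and the deposited bounds did not overlap in either genotype. Npm1 encodes nucleophosmin, an abundant nucleolar chaperone and export factor. Its FPKM was 181 and 157 in the fasted and 142 and 118 in the refed WT and KR libraries, and it fell by 0.38 ± 0.05 (adjusted p = 0.000497). Npm1 has processed copies in the genome, so reads may be split among them and its level is uncertain. Nucleolin (Ncl), which binds ribosomal RNA precursors, stood at 90.3 and 73.6 FPKM in the fasted and 73.3 and 64.4 in the refed WT and KR libraries, and fell by 0.24 ± 0.06 (adjusted p = 0.00795). The fasted KR and the refed WT libraries were nearly equal for Ncl. Ddx21, an RNA helicase of both the nucleolus and the nucleoplasm, fell by 0.23 ± 0.07 (adjusted p = 0.0182). Nolc1, a scaffold for snoRNPs, had an FPKM of 32.8 and 30.1 in the fasted and 28.5 and 27.3 in the refed WT and KR libraries, a change of -0.17 ± 0.06 that missed the threshold (adjusted p = 0.0535) and passed in 3 of 9 alternatives.

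Partners within the snoRNPs diverged. Among the 3 box C/D proteins in the naming rule, Fbl, which encodes the methyltransferase fibrillarin, fell by 0.34 ± 0.07 (adjusted p = 0.00427). Its FPKM went from 27.9 in fasted WT and 21.9 in fasted KR to 20.4 in refed WT and 18.3 in refed KR. Nop56, on chromosome 2 at 130100148 to 130105049 of mm9, rose by 0.54 ± 0.07 (adjusted p = 0.000195), its FPKM being 36.0 and 33.6 in the fasted and 55.6 and 47.0 in the refed WT and KR libraries. Its paralog and partner Nop58 had 51.3 and 44.2 in the fasted and 46.1 and 41.9 in the refed libraries, a change of -0.11 ± 0.06 (adjusted p = 0.146). In the fasted libraries Nop58 was thus above Nop56, and in the refed libraries Nop56 was above Nop58, both per length. A further core box C/D protein outside the rule, Nhp2l1, rose by 0.33 ± 0.06 (adjusted p = 0.00145). Its FPKM was 106 and 107 in the fasted and 138 and 129 in the refed WT and KR libraries. Nop56 shares part of its locus with Idh3b, and the labels do not say that strand was kept, so some of its reads could belong to that gene.

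Of the 4 box H/ACA proteins 2 rose, 1 fell and 1 did not pass (background 27.7% higher and 29.2% lower). Nop10, the smallest subunit, had the highest mean of the 57 genes over the 4 libraries, although Npm1 and Polr1d were above it in both fasted ones. The FPKM of Nop10 was 132 and 126 in the fasted and 187 and 168 in the refed WT and KR libraries, and it rose by 0.46 ± 0.06 (adjusted p = 0.000213). Nhp2, an RNA-binding subunit, rose by 0.43 ± 0.08 (adjusted p = 0.00156), from 27.0 and 21.6 FPKM to 33.6 and 32.3. Both were higher in each refed library than in either fasted one. Gar1, the subunit that contacts the catalytic protein, fell by 0.33 ± 0.07 (adjusted p = 0.0049). The catalytic subunit dyskerin (Dkc1) had 13.4 and 12.1 FPKM in the fasted and 12.8 and 13.0 in the refed WT and KR libraries, a change of 0.02 ± 0.08 (adjusted p = 0.846). Its bounds overlapped in each of the 4 pairs compared.

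The 5 subunits of RNA polymerase I in the naming rule divided as well, with 2 that rose, 1 that fell and 2 that did not pass. Other measured subunits lie outside the rule and are counted below among 14 further genes. Of these, Znrd1, Twistnb and Cd3eap had changes of -0.0065, 0.13 and -0.03 that did not pass. The background was 27.7% higher and 29.2% lower. Polr1b, the second largest subunit, had an FPKM of 9.42 and 8.29 in the fasted and 6.56 and 6.11 in the refed WT and KR libraries and fell by 0.42 ± 0.08 (adjusted p = 0.00247). Polr1a, the largest subunit, had 10.1 and 9.09 in the fasted and 9.40 and 7.26 in the refed libraries, a change of -0.19 ± 0.08 (adjusted p = 0.0823). Within that change, the WT ratio was -0.09 and the KR ratio -0.29. Polr1e, a subunit that aids initiation, rose by 0.38 ± 0.10 (adjusted p = 0.0118), from 3.58 and 3.20 FPKM to 4.65 and 4.78. Polr1d, which RNA polymerase III shares, rose by 0.15 ± 0.06 (adjusted p = 0.0428), and this call passed in 6 of 9 alternatives. Polr1c, shared in the same way, had a change of -0.16 ± 0.06 (adjusted p = 0.0533).

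In the small subunit group 3 of 21 genes (14.3%) rose, 3 (14.3%) fell and 15 did not pass, at a median of -0.02. The background was 27.7% and 29.2%. Utp6 rose by 0.44 ± 0.07 (adjusted p = 0.000851), its FPKM being 16.7 and 15.5 in the fasted and 23.8 and 20.5 in the refed WT and KR libraries. Utp3 rose by 0.38 ± 0.06 (adjusted p = 0.00114), from 26.9 and 24.8 to 34.9 and 33.0 FPKM. Utp11l was the other member that rose, by 0.23 ± 0.07 (adjusted p = 0.02), and its call passed in 7 of 9 alternatives. All 3 encode components of the processome. Those that fell were Utp18, by 0.42 ± 0.07 (adjusted p = 0.000972), Rrp9, by 0.38 ± 0.08 (adjusted p = 0.00421), and Noc4l, by 0.38 ± 0.08 (adjusted p = 0.00504). The FPKM of Utp18 was 25.8 and 24.7 in the fasted and 19.8 and 17.5 in the refed WT and KR libraries. For Rrp9, which recognises the U3 snoRNA, it was 17.6 and 15.5 before and 12.2 and 12.8 after refeeding. Noc4l had 11.6 and 10.2 and then 8.05 and 8.25. Each of these 3 was lower in both refed libraries, while the order of WT and KR differed between feeding states for Rrp9 and Noc4l. The remaining 15 ranged from -0.20 for Utp14b to 0.24 for Utp23. Imp3 and Imp4, which join Mphosph10 in a U3 complex, were at 0.08 and 0.05, and Mphosph10 itself was at -0.05.

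The large subunit group held the most calls, with 7 of 16 genes (43.8%) that rose, 4 (25%) that fell and 5 that did not pass. Its median was 0.06. Over all genes tested 27.7% rose and 29.2% fell, and the difference was not tested. Nol12, an RNA-binding protein gene, rose by 0.49 ± 0.07 (adjusted p = 0.000417), from FPKM values of 18.5 and 16.3 to 25.7 and 23.9 in WT and KR. Ebna1bp2 rose by 0.39 ± 0.07 (adjusted p = 0.00113), from 22.5 and 19.8 to 29.3 and 26.8, and Nol8 by 0.29 ± 0.08 (adjusted p = 0.0108), from 9.86 and 9.31 to 12.9 and 11.2. Rrp1, an abundant member at 111 and 105 FPKM in the fasted and 134 and 128 in the refed WT and KR libraries, rose by 0.27 ± 0.05 (adjusted p = 0.00284). All 4 of these were higher in each refed library than in either fasted one. The PeBoW complex joins Pes1, Bop1 and Wdr12 in the maturation of the large subunit. Pes1 rose by 0.25 ± 0.07 (adjusted p = 0.0122), with 23.4 and 22.2 FPKM in the fasted and 28.6 and 25.8 in the refed WT and KR libraries. Wdr12 rose by 0.26 ± 0.08 (adjusted p = 0.0196), and Bop1, at 17.8 and 15.9 FPKM in the fasted and 19.2 and 17.3 in the refed libraries, had a change of 0.11 ± 0.07 (adjusted p = 0.203). The last of the 7 was Rrp8, at 0.26 ± 0.08.

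Those of the large subunit group that fell were Rrp1b, Nol9, Rrs1 and Gnl3. Rrp1b is the paralog of Rrp1 and moved the other way, by -0.44 ± 0.09 (adjusted p = 0.00339), from 7.34 and 6.54 FPKM in the fasted to 4.85 in each refed library. Nol9, a polynucleotide kinase of ribosomal RNA processing, fell by 0.41 ± 0.08 (adjusted p = 0.00244), from 10.9 and 10.2 to 8.35 and 7.07 FPKM in WT and KR. Rrs1, which helps to bring the 5S particle into the large subunit, fell by 0.38 ± 0.08 (adjusted p = 0.00328), with 15.5 and 13.5 FPKM in the fasted and 12.4 and 9.56 in the refed WT and KR libraries. Refed KR was the lowest library for Nol9 and for Rrs1. Gnl3, which encodes nucleostemin, a nucleolar GTP-binding protein of proliferating cells, fell by 0.19 ± 0.06 (adjusted p = 0.0232), with 54.6 and 47.8 FPKM in the fasted and 48.3 and 41.1 in the refed WT and KR libraries. Of the 3 genes that are nucleolar by name and have another or less settled role, Nol4 rose by 0.21 ± 0.07 (adjusted p = 0.0289), a call that passed in 7 of 9 alternatives. Nol7, at 0.19 ± 0.07 (adjusted p = 0.0516), did not pass but did so in 6 of 9, and Nol3, at -0.07, did not pass in any.

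**Figure D2:**
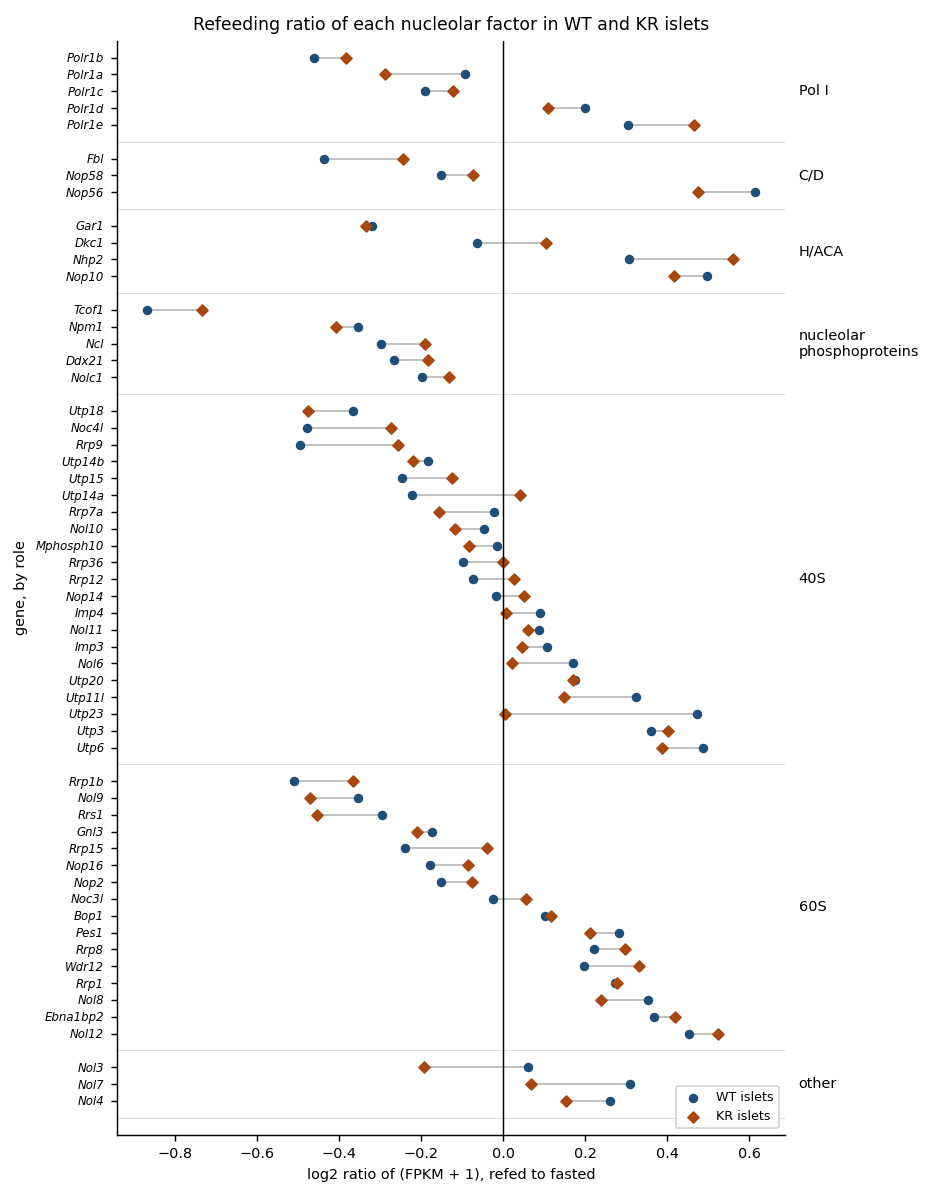
Log2 ratio of (FPKM + 1), refed to fasted (horizontal axis), for each of the 57 genes in WT (circles) and KR islets (diamonds), grouped by role and sorted by the fitted change. Each point compares 2 single libraries. The 5 nucleolar phosphoprotein genes lie below 0 in both genotypes, while each other group has points on both sides. Among the 3 genes nucleolar by name, the only point below 0 is that of Nol3 in KR, at -0.19.

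The responses of the 2 genotypes rest on different libraries, and 27 of the 57 genes were lower and 24 higher after refeeding in both (background 43.6% and 41.9%). The ratio was below 0 for 32 genes in WT and 28 in KR (background 49.4% and 52.2%), at a median of -0.03 and 0.0031. The deposited bounds were apart for 18 genes that were higher and 19 that were lower after refeeding in WT, and for 14 and 11 in KR. Refed KR was the shallowest library and has the widest bounds. Over all genes tested 30.1% were higher and 30.9% lower by this measure in WT and 23% and 29% in KR. No test of a difference between the responses can be made, since no residual degree of freedom is left once it is fitted. As values, the largest differences of KR minus WT response were -0.47 for Utp23, a small subunit factor, and 0.26 for Utp14a. Utp23 had 4.22 and 4.82 FPKM in the fasted and 6.25 and 4.83 in the refed WT and KR libraries, so that refed WT stood above the other libraries.

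Other genes of the pathway, from lists outside the naming rule, also went both ways. Of 124 tested ones 48 (38.7%) rose, 24 (19.4%) fell and 52 did not pass after refeeding, at a median of 0.12, beside 27.7% and 29.2% of all genes. Their difference from the 57 was not tested. Among 14 further genes of transcription by RNA polymerase I 6 rose and 2 fell. Those 2 were Ubtf, which encodes the upstream binding factor UBF, at -0.24 ± 0.07 (adjusted p = 0.0179), and Rrn3, the initiation factor known to respond to growth signals, at -0.30 ± 0.07 (adjusted p = 0.00438). Ubtf had 36.9 and 32.5 FPKM in the fasted and 28.9 and 29.3 in the refed WT and KR libraries, and Rrn3 had 26.1 and 22.8 and then 20.9 and 18.4. The shared polymerase subunit genes Polr2l and Polr2k rose by 0.71 and 0.70. Of 10 snoRNP assembly genes, a list that also holds Nhp2l1, 3 rose and 3 fell. Among those that fell were Naf1, a box H/ACA assembly factor, at -0.77, and Ruvbl2, an ATPase of the assembly machinery, at -0.64. Further small subunit factors counted 9 rises and 6 falls in 34, led by Dcaf13 at 0.71 and Dhx37 at -0.60. Further large subunit factors counted 19 and 11 in 40, led by the helicase gene Ddx31 at 0.90 and by Zfp622 at -0.51. Of 26 exosome and nuclease genes 11 rose and 2 fell, with Pop1 at 0.67 and Exosc5 at -0.62.

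Myc, whose product is known to activate many genes of this pathway, fell by 2.12 ± 0.11 after refeeding (adjusted p = 4.67e-06), from FPKM values of 26.4 in fasted WT and 18.6 in fasted KR to 4.35 in each refed library. Of the 8 tested genes of the Myc network 2 rose and 3 fell. The repeat row Rn45s, which stands for the ribosomal RNA precursor, rose by 0.87 ± 0.05 (adjusted p = 7.03e-06), from 1174 and 944 FPKM in the fasted to 2206 and 1682 in the refed WT and KR libraries. Rn4.5s, the other repeat row listed with it, rose by 2.04 ± 0.06, from 39.1 and 67.9 FPKM to 164 and 282. The libraries were poly-A selected, so Rn45s counts what carried over, and its share of precursor and mature ribosomal RNA was not measured. Cytosolic ribosomal protein genes are the product side of the pathway: 79 of 82 rose and 1 fell, at a median of 0.41. Over all genes tested 27.7% rose and 29.2% fell, at a median of -0.01. Mitochondrial ribosomal protein genes counted 50 rises and 4 falls in 76, at a median of 0.30. The medians of both lie above the median of -0.05 over the 57 nucleolar genes, and this difference was not tested. The median change over all genes was 0.24 where the longest coding transcript was under 1500 bases and -0.05 where it was longer. Of the 57 genes 48 were in the longer set, at a median of -0.04, and 9 in the shorter set, at a median of -0.05. The part of length in the difference was not tested. Of 15 p53 response genes, which nucleolar stress is known to activate, 5 rose and 5 fell.

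Markers of other cells moved with feeding. Of 5 tested fibroblast and stellate markers 5 fell, at a summed FPKM of 30.7 and 31.7 in the fasted and 15.8 and 18.3 in the refed WT and KR libraries. Of 5 tested endothelial markers 3 fell, at a sum of 22.5 and 14.8 and then 10.5 and 11.1, and of 8 macrophage and antigen presenting markers 4 fell, at a sum of 273 and 283 and then 215 and 207. No gene of these 3 lists was at 0 in every library. Other lists went up: 7 of 12 tested beta-cell markers rose and 2 fell, at a sum without Ins2 of 41207 and 55929 in the fasted and 58200 and 81500 in the refed WT and KR libraries, and Ppy, the marker of PP cells, rose by 0.55. The part of these cells in the falls of Tcof1, Npm1 and others, or in the rises of Nop56, Nop10 and others, was not tested. Of 15 proliferation genes 6 could be tested, of which 2 rose, 0 fell and 4 did not pass (background 27.7% higher and 29.2% lower). Those that rose were Pcna, by 0.39, and Mcm5, by 0.47 at an FPKM between 0.87 and 1.65. Mki67, Top2a and Cdk1 were under the level of 1 FPKM. Transcript length also moved with refeeding: over 11417 genes with a length the rank correlation of the fitted change with the longest coding transcript was -0.277, and over the 57 it was -0.0948. Points within each set share libraries and depth, and these are descriptions.

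In KR islets the estimates for these genes lay mostly below those in WT, by small amounts. The fitted estimate was below 0 for 53 of the 57 (93%), against 64.8% of all genes tested, and the median was -0.15 against -0.04. Passing the test was another matter: 1 of the 57, Gar1, fell in KR, 0 rose and 56 did not pass, while 0.661% of all genes fell and 0.602% rose. At an unadjusted p under 0.05, 24 were lower and 0 higher in KR (background 11.7% and 4.62%, and 1.26% for the adjusted calls in either direction). After rescaling, 14 were lower at that level by the median of ratios and 11 by the upper quartile. Over all genes 1683 of 11953 and 1723 of 11955 passed that level in either direction on these scales, against 1955 of 11953 as deposited. The rescaled totals were not split by direction. The genotype pairs share no library, and 46 of the 57 were lower in KR in both feeding states (background 42.7%) and 2 were higher in both (background 18.9%). In 18 genes both KR libraries lay below both WT libraries (background 11.3%), and in 0 both lay above (background 5.43%). By pair, 51 were lower in fasted and 50 in refed KR (background 59.7% and 63.9%). The deposited bounds were apart for 22 genes in the fasted pair and 13 in the refed one, all lower in KR (background 15.5% and 11.8%, and 7.47% and 3.51% for higher). None of the 57 differed 1.5-fold in either pair, where the background was 1.11% (fasted) and 1.42% (refed).

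**Figure D3:**
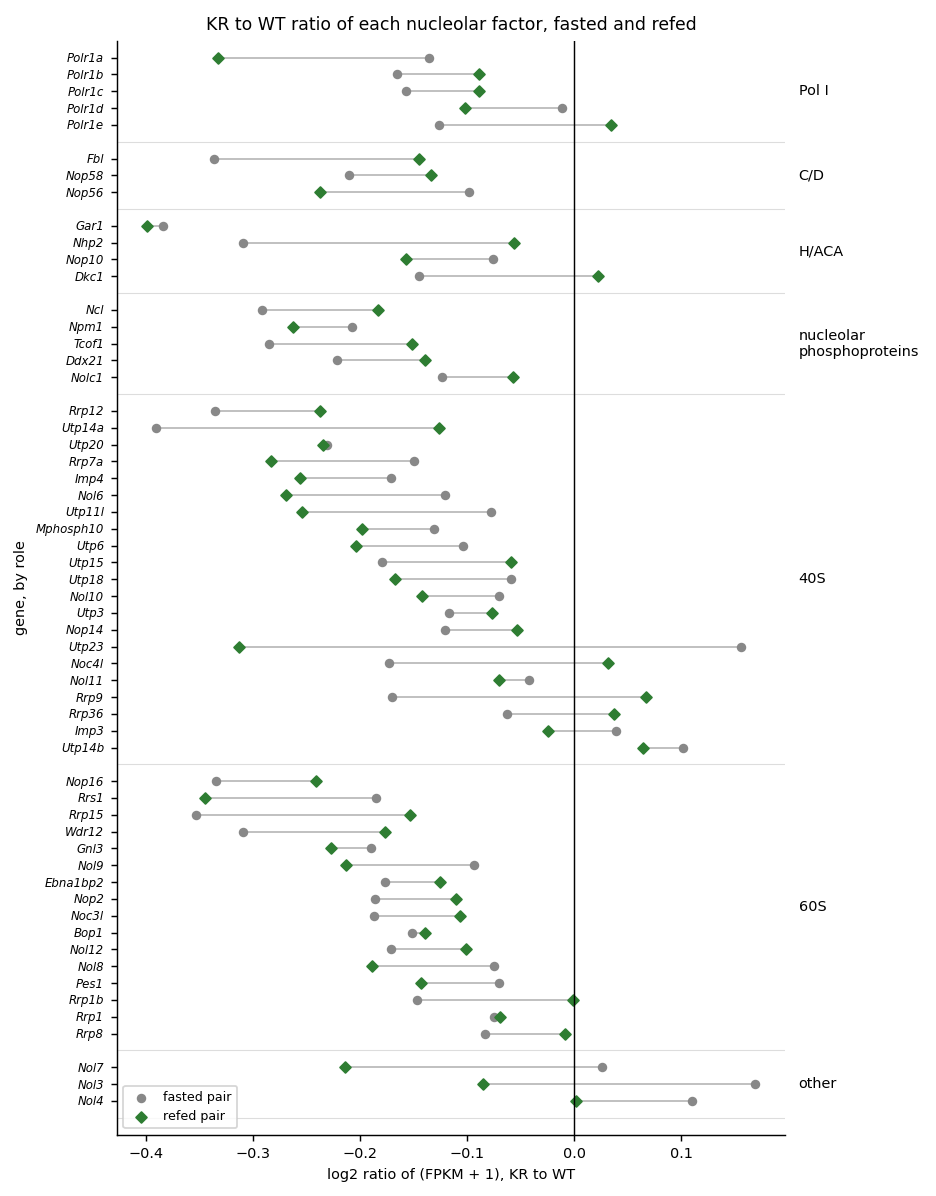
Log2 ratio of (FPKM + 1), KR to WT (horizontal axis), for each of the 57 genes in the fasted (circles) and the refed pair (diamonds), grouped by role. Each point compares 2 single libraries. Most points lie between -0.40 and 0, and Gar1 is at -0.38 and -0.40.

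Gar1, on chromosome 3 at 129527830 to 129534314 of mm9, stood at 15.4 FPKM in the WT and 11.6 in the KR library when fasted, and at 12.1 and 8.97 when refed. The deposited bounds ran from 13.9 to 16.9 and from 10.3 to 12.9 in the fasted pair, and from 10.5 to 13.7 and from 7.21 to 10.7 in the refed pair. Both KR libraries lay below both WT libraries, with a fasted ratio of -0.38 and a refed ratio of -0.40. The bounds were apart in the fasted pair and met in the refed pair. The fitted difference was -0.39 ± 0.07 (adjusted p = 0.0463). The call passed in 5 of 9 alternatives, and over all 9 its adjusted p lay between 0.0202 and 0.419.

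Among the nucleolar phosphoproteins all 5 estimates were below 0 in KR, at a median of -0.22. Npm1 came nearest to the threshold, at -0.23 ± 0.05 (adjusted p = 0.0905), followed by Ncl, at -0.24 ± 0.06 (adjusted p = 0.109). For both genes the bounds were apart between KR and WT in each feeding state. Tcof1, Ddx21 and Nolc1 were at -0.22, -0.18 and -0.09. The 3 box C/D proteins in the naming rule were at -0.24 for Fbl, -0.17 for Nop58 and -0.17 for Nop56, and each was lower in KR in both pairs. Nhp2l1, the box C/D protein outside the rule, was at -0.04, with a fasted ratio of 0.0083 and a refed ratio of -0.097. Besides Gar1, the box H/ACA genes Nhp2, Nop10 and Dkc1 had -0.18, -0.12 and -0.06. Fbl and Nhp2 were further apart in the fasted pair, at -0.34 and -0.31, than in the refed pair, at -0.14 and -0.06. The 5 polymerase subunits in the naming rule ranged from -0.23 for Polr1a to -0.05 for Polr1e, and with the upper quartile Polr1d and Polr1e turned to 0.0057 and 0.0046.

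All 16 large subunit genes had an estimate below 0 and a ratio below 0 in both pairs, at a fitted median of -0.15, although Rrp8 turned to 0.011 when the libraries were rescaled by their upper quartile. Nop16 had an FPKM of 16.7 and 13.0 in the fasted and 14.6 and 12.2 in the refed WT and KR libraries, a difference of -0.29 ± 0.07 (adjusted p = 0.108). For Rrs1 the difference was -0.26 ± 0.08 (adjusted p = 0.16), and for Gnl3 it was -0.21 ± 0.06 (adjusted p = 0.156). Both KR libraries were below both WT libraries for Nop16 and Gnl3, while for Rrs1 fasted KR, at 13.5, was above refed WT, at 12.4. The ratios of Rrp1b in the refed pair and of Rrp8 there were close to 0, at -0.0012 and -0.0085.

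Of the 21 small subunit genes 19 had an estimate below 0 and 15 a ratio below 0 in both pairs, at a fitted median of -0.11, with Nol11, Rrp36 and Rrp9 turning above 0 by the upper quartile. Rrp12, an export and maturation factor, had 9.66 and 9.13 FPKM in the fasted and refed WT libraries and 7.44 and 7.59 in the KR ones, a difference of -0.29 ± 0.08 (adjusted p = 0.147). Its bounds were apart in both pairs. Utp14a had 14.3 and 12.1 in WT and 10.7 and 11.0 in KR, a difference of -0.26 ± 0.09 (adjusted p = 0.194), most of it in the fasted pair. The genes with an estimate above 0 were Utp14b, Nol4, Nol3 and Imp3, at 0.08, 0.06, 0.04 and 0.0074, none past the threshold. Utp14b, a retroposed copy of Utp14a within the Acsl3 locus, had 1.78 and 1.45 FPKM in fasted and refed WT and 1.98 and 1.56 in KR, and reads of these copies can be split between them. Nol3 is known as an apoptosis repressor of the cytoplasm, and Nol4 has no settled role in ribosome assembly. Nol4 had 21.8 and 26.4 FPKM in fasted and refed WT and 23.6 and 26.4 in KR. Nol3 had 9.07 and 9.50 in WT and 10.3 and 8.90 in KR, and Imp3 had 117 and 126 in WT and 121 and 124 in KR.

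The scale of the libraries bears on this pattern. FPKM is a share of each library, and Ins2 alone stood at 122864 and 121397 in the fasted and refed WT libraries and at 201043 in the refed KR library, with no value in the fasted KR one. Rescaled by the median of ratios, the estimate was below 0 for 52 of the 57 genes against 51% of all genes, and by the upper quartile for 47 against 43.9%. The median over the 57 minus that over all genes was -0.11 as deposited and -0.10 after either rescaling. The split of all genotype calls moved with the scale, from 47.7% higher in KR as deposited to 62.8% and 68.6%, and Gar1 did not pass after either rescaling.

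**Figure D4:**
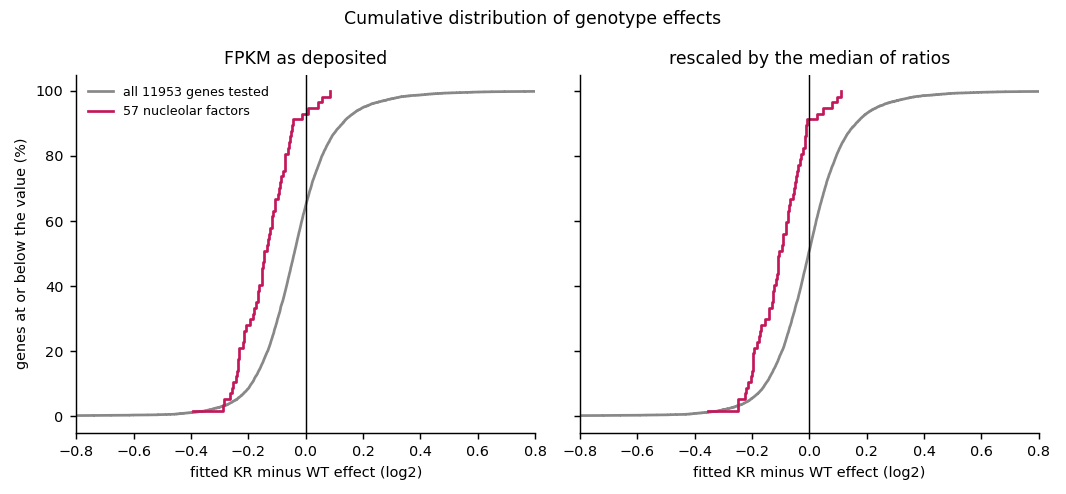
Cumulative share of genes (vertical axis, %) with a fitted KR minus WT effect at or below the value on the horizontal axis (log2), for the 57 nucleolar factors and all genes tested, as deposited (left) and rescaled by the median of ratios (right). The curve of the 57 lies to the left of that of all genes on both scales over most of its range.

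Markers of several cell types differed between genotypes, in both directions. Of 12 tested beta-cell markers 6 rose in KR and 0 fell, and the sum given above without Ins2 was higher in KR in both feeding states. Of 3 delta-cell markers 1 rose and all 3 estimates were above 0, and of 3 lymphocyte markers 2 rose. Of 8 macrophage and antigen presenting markers 3 rose, namely Cd74, H2-Aa and H2-Ab1. In that list 4 estimates were below 0, those of Lyz1 (-0.33), Lyz2 (-0.22), Cd68 (-0.19) and Emr1 (-0.05), and none of the 4 passed. Lymphocyte markers summed to 10.8 and 23.7 FPKM in the fasted and 10.8 and 16.4 in the refed WT and KR libraries. Of 5 endothelial estimates 4 were below 0, at a median of -0.36, and 0 passed. The bounds were apart and lower in KR for 4 of 5 in the fasted pair. In the refed pair the bounds of all 5 overlapped, and Egfl7 was higher in KR by 0.49. Both tested adipocyte markers fell, Fabp4 by 1.24 and Lpl by 0.37, while Adipoq, Plin1 and Cfd were listed at 0 in every library. The part of these cells in the lower nucleolar estimates was not tested.

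Of 124 other ribosome biogenesis genes tested 113 had an estimate below 0, at a median of -0.12 (background 64.8% and -0.04). Among them 2 fell and 0 rose. These were Mrto4, a large subunit factor, at -0.45 (adjusted p = 0.0395), and Exosc9, an exosome subunit, at -0.47 (adjusted p = 0.0113). Cytosolic ribosomal protein genes had 51 of 82 estimates below 0, near the background share, at a median of -0.02. Mitochondrial ones had 64 of 76 below 0, at a median of -0.10. Of the repeat rows, Rn45s fell by 0.35 ± 0.05 in KR (adjusted p = 0.0161) and Rn4.5s rose by 0.78 ± 0.06 (adjusted p = 0.0013). Myc had a difference of -0.24 ± 0.11 (adjusted p = 0.327), with a fasted ratio of -0.48 and a refed ratio of 0.00025. Of the 15 p53 response genes 2 fell in KR, Bax by 0.31 and Ccng1 by 0.33, 0 rose and 13 did not pass. The estimates of this list ran from -0.35 for Cdkn1a (adjusted p = 0.0669) to 0.63 for Cdkn2a (adjusted p = 0.0723). Of them 11 were below 0 and 4 above (background 64.8% below 0).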

How the data were processed

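Polyadenylated RNA of 4 pooled islet libraries was sequenced, and the deposited tables hold 23699 rows of FPKM with lower and upper bounds and a status, per the file headers. Base calls came from bcl2fastq 1.8.4 and alignment to mm9 from TopHat2 2.0.4, per the submitters' processing notes, while the program that made the FPKM values is not given in the sources used here. Values of 1 symbol were summed, genes with a usable status in every library and a mean FPKM of at least 1 were kept, and log2(FPKM + 1) was modelled as feeding plus genotype by limma (version 3.58.1, under R 4.3.3), letting the variance follow the mean. That leaves 1 residual degree of freedom, with a prior of 7.58, and counts any interaction as error. P-values were adjusted by Benjamini-Hochberg over all genes tested, with a threshold of 0.05. An exact permutation test of 2 libraries against 2 cannot go below p = 0.333 and was not used.

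Fragments per gene were implied from the deposited bounds, taking each bound as 2 standard errors of a Poisson count from the value. Table starts count from 0, so 1 was added. Lengths are of the longest coding transcript in GENCODE M21, and promoters are from RefSeq on GRCm38.p6. Bop1, Fbl, Nol3, Nol4, Nol6, Npm1, Rrp12, Rrs1, Tcof1, Utp11l, Utp23 and Utp6 had no entry there.

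The genes and lists were chosen with earlier results of these data known. Values in every library were given for the 10 largest refeeding changes in each direction, the 5 largest genotype differences in each direction, every gene called between genotypes and a panel of 14 well-known factors. For other lists up to 4 genes with the largest changes among those that passed were named, and Myc, Ubtf and Rrn3 always. Nhp2l1, Znrd1, Twistnb and Cd3eap were named as further parts of complexes that the rule covers in part. Alternatives covered scaling, pseudocount (0.1), filters (none, or a mean FPKM of at least 5), the variance model, limma-voom on implied fragments and the handling of repeated symbols.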

Additional observations from a re-analysis of the deposited data

How the results depend on the processing

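Without a filter on low values 9 of the 57 genes rose after refeeding in place of 16, while over all genes 14.2% rose in place of 27.7%. The count of those that fell in KR was 0 with the median of ratios, the upper quartile, no filter or limma without trend, and 12 with limma-voom. In that order 0.427%, 0.552%, 0%, 0.0167% and 4.84% of all genes fell. Where the count was 0, 14, 11, 17 and 17 were lower at an unadjusted p under 0.05. In either direction 1683 of 11953, 1723 of 11955, 1892 of 17451 and 1583 of 11953 genes passed that level there. Over all genes, limma called 151 between genotypes, 0 without a filter (1892 at an unadjusted p under 0.05), 252 at a mean FPKM of at least 5, 5 without trend, 228 with a robust prior and 869 with limma-voom. With the upper quartile the median KR to WT ratio in the refed pair was -0.063 in place of -0.14, and 2 genes in place of 1 were 1.5-fold apart between refed and fasted KR. The same rescaling turned the refeeding change of Rrp12 to 0.0059 and the genotype differences of Nol11 to 0.0030, Polr1d to 0.0057, Polr1e to 0.0046, Rrp36 to 0.047, Rrp8 to 0.011 and Rrp9 to 0.0069. The median of ratios turned Rrp36 to 0.027. The cause of these changes was not tested. Of 30 refeeding calls 20 passed in all 9 alternatives. Leaving out any library leaves the additive model no residual degree of freedom, so those fits were not run. The pair ratios in the text show each contrast without the other 2 libraries. No paired analysis was possible because each group has 1 library and the columns carry no replicate number beyond it. The shallower refed KR library sets the widest bounds.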
